A study of Mus musculus with 45 samples.

Results

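The comparison asked what adding the TIGIT inhibitor HLX53 to the anti-PD-1 antibody serplulimab changed in the RNA of CT26 tumours in the experiment T2106. It set 3 tumours given HLX53 at 10 mg/kg with serplulimab at 10 mg/kg against 3 tumours given serplulimab at 10 mg/kg, which are 6 of the 45 tumours of the series and were picked by their treatment labels alone. CT26 is an undifferentiated colon carcinoma line of BALB/c mice, grown here under the skin. All hosts, treated and control, were HuGEMM BALB/c mice with human PD-1 and human TIGIT knocked in, so that agents against the human receptors can be tested on host cells. Further T2106 groups used below had 3 tumours each and received HLX53 at 5 mg/kg with serplulimab at 10 mg/kg, HLX53 at 10 mg/kg, or vehicle. The remaining 3 T2106 tumours were given pembrolizumab at 10 mg/kg with tiragolumab at 10 mg/kg. They were in no tested comparison, but entered the estimate of the spread behind the p-values. In a separate experiment, T2215, the combination at 10 mg/kg of each and serplulimab at 10 mg/kg were again given to 3 tumours each. Agents were injected into the peritoneum from day 8, and whole tumours were taken for total RNA sequencing. The labels number the tumours of a group as replicates without saying how they were drawn from animals, so p-values measure the spread between these tumours.

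TIGIT is an inhibitory receptor of T cells and natural killer cells. It binds CD155, encoded by Pvr, and nectin-2 on tumour and myeloid cells, and competes for them with the activating receptor CD226. PD-1, encoded by Pdcd1, restrains activated T cells after binding PD-L1, encoded by Cd274. Antibodies against both receptors are given together to release T cells from both brakes.

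Values are FPKM, fragments scaled to transcript length and to the library's mapped fragments, as the authors made them. Differences are log2 fold changes of FPKM + 0.5 with a standard error (SE), from limma fitted to all 18 T2106 tumours. Adjusted p-values (Benjamini-Hochberg, 15070 genes) were held to a threshold of 0.05. Values given 3 in a row are those of replicates 1, 2 and 3. Correlations across genes were 0.958 to 0.983 among combination tumours, 0.953 to 0.989 among serplulimab tumours and 0.864 to 0.98 between the groups. Serplulimab replicate 1 lay nearer to the combination tumours, at 0.955 to 0.98, than serplulimab replicate 3 did, at 0.864 to 0.938. Its correlations of 0.98 and 0.971 with combination replicates 2 and 3 exceeded those of 0.963 and 0.953 with serplulimab replicates 2 and 3. Because all T2106 groups share 1 estimate of the spread, a tumour outside the comparison also bears on its p-values: replicate 2 of the 5 mg/kg group stood apart from its group and resembled the 10 mg/kg tumours in most of the genes that rose. Its label was taken as given and could not be checked. Reg1, at 0.397 FPKM in it against 3.58 to 7.52 FPKM at 10 mg/kg, set it apart from them. So did the listed skeletal muscle genes, which summed to 82.6 FPKM in it against 4.89 to 8.51 FPKM at 10 mg/kg. The listed skin keratinocyte genes summed to 5.58 FPKM in it, against 12.1 to 15.8 FPKM at 10 mg/kg. Fits without that tumour, an alternative chosen after seeing the data, are given beside the list counts below.

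The drug targets themselves did not pass with all tumours in the fit. Pvr and Tigit passed as lower without low-dose replicate 2, a fit in which 16.2% of all genes did so. Pvr had 29.0, 35.7 and 32.2 FPKM in combination tumours, against 52.7, 77.7 and 88.4 FPKM in serplulimab tumours. All combination tumours lay below all serplulimab tumours for this main TIGIT ligand, and the difference of −1.13 ± 0.33 (SE) had an adjusted p of 0.0697, and of 0.00408 without low-dose replicate 2. Tigit had 2.89, 11.9 and 3.81 FPKM in combination tumours, against 7.83, 13.4 and 20.2 FPKM in serplulimab tumours. The groups overlapped through combination replicate 2, and the difference was −1.24 ± 0.50, with an adjusted p of 0.105 and of 0.0237 without low-dose replicate 2. The hosts carry a TIGIT knock-in, and no source used here says which part of mouse Tigit the deposited values count. Tigit stood at 15.8, 16.9 and 16.9 FPKM in tumours given HLX53 alone and at 17.9, 13.6 and 17.3 FPKM in vehicle tumours, among the upper serplulimab values.

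The activating partner and the PD-1 axis had positive fold changes that did not pass with all tumours in the fit. Cd226 had 3.99, 1.99 and 3.55 FPKM in combination tumours, against 2.37, 0.705 and 0.871 FPKM in serplulimab tumours (1.08 ± 0.58, adjusted p = 0.181). Cd96, a further CD155 receptor, had 5.37, 1.86 and 3.19 FPKM in combination tumours, against 1.5, 1.21 and 1.23 FPKM in serplulimab tumours (1.04 ± 0.42, adjusted p = 0.105, and 0.0335 without low-dose replicate 2). Cd226 overlapped between the groups at serplulimab replicate 1, whereas for Cd96 every combination tumour was the higher. Pdcd1 had 3.46, 1.68 and 2.83 FPKM in combination tumours, against 1.48, 0.505 and 0.854 FPKM in serplulimab tumours (1.14 ± 0.65, adjusted p = 0.205). Cd274 had 78.9, 29.7 and 62.4 FPKM in combination tumours, against 41.8, 36.2 and 24.3 FPKM in serplulimab tumours (0.66 ± 0.47, adjusted p = 0.3). Pdcd1 did not overlap between the groups, while combination replicate 2 put Cd274 inside the serplulimab range. The hosts also carry a PD-1 knock-in, and which part of mouse Pdcd1 the deposited values count is likewise not known. Of the 8 tested genes of TIGIT and its partners none passed, and their median was 0.77, beside 0.00 for all genes tested. Without low-dose replicate 2, 3 of the 8 passed as higher and 2 as lower, beside 22.1% of all genes higher and 16.2% lower. Without serplulimab replicate 1, 2 passed as higher and 2 as lower, beside 18.2% and 4.84% of all genes. Without combination replicate 2, 1 passed as higher and 1 as lower, beside 3.54% and 1.83%. None of the 8 passed with only the compared groups in the fit or without any other single tumour of those groups.

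**Figure D1:**
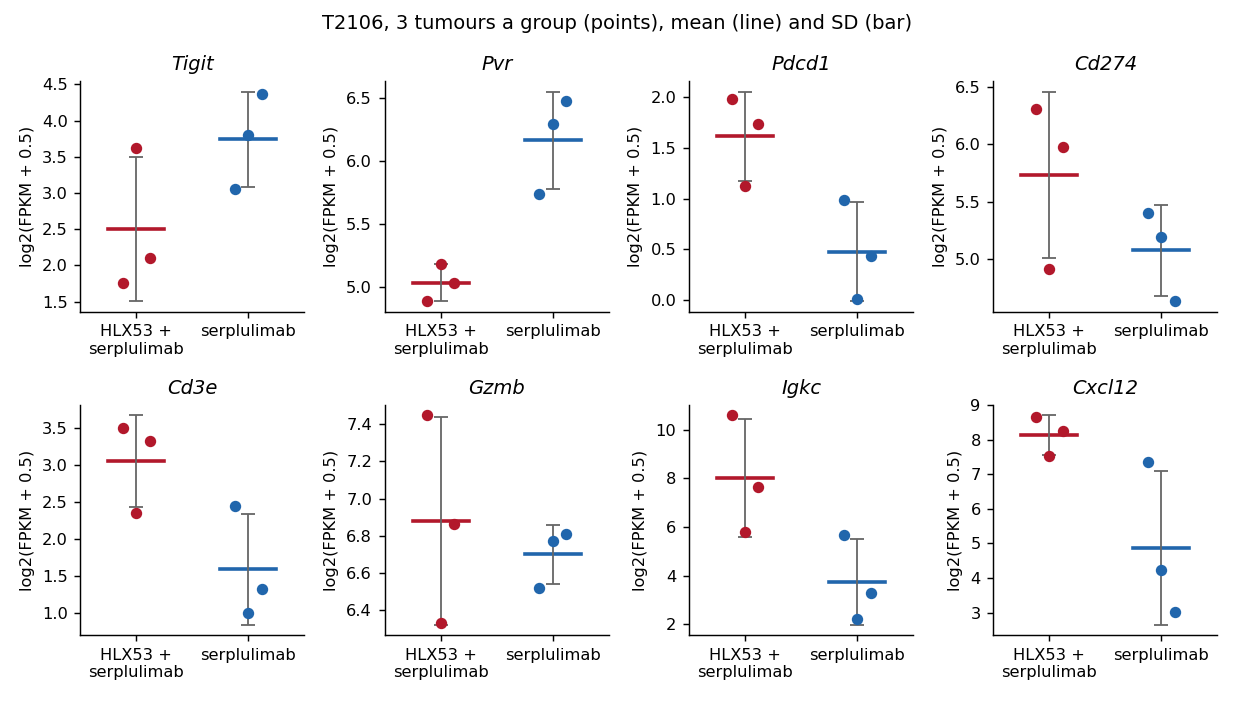
Log2(FPKM + 0.5) of 8 genes in each T2106 tumour, with HLX53 10 mg/kg + serplulimab on the left and serplulimab on the right (points: tumours, line: mean, bar: SD, n = 3 each). Pvr and Pdcd1 do not overlap between the groups, and none of the 8 genes passed the threshold with all 18 tumours in the fit.

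Across the transcriptome 240 genes passed, 1.59% of those tested, and 212 of them (1.41%) rose while 28 (0.186%) fell. Among the gene lists the rises fell in those of epithelium, skin keratinocytes, the mammary gland and fat: 5 of 10 epithelial, 4 of 6 keratinocyte, 2 of 9 mammary and 1 of 12 adipocyte genes rose, and 0 of 21 T cell identity genes. They were scarce transcripts: the median of their group means was 1.89 FPKM in combination tumours and 0.22 FPKM in serplulimab tumours, and 153 of the 212 averaged below 0.5 FPKM under serplulimab. The filter asked for 0.5 FPKM in at least 3 libraries, which the combination tumours alone could meet. A gene high only there could enter the test through that group, so the list counts above may partly follow from the filter. With a filter at 1 FPKM 19 genes passed, all higher. The genes that fell were better expressed, with medians of 11.7 FPKM in combination tumours and 21.2 FPKM in serplulimab tumours. Serplulimab replicate 1 was the highest of its group for 189 of the 212 rises and the lowest for 22 of the 28 falls. Over all 15070 genes tested it was the highest for 6715 and the lowest for 5697. Unadjusted p was under 0.05 for 5408 genes (35.9%). The count of 240 depended on single tumours: 5778 genes passed without low-dose replicate 2, 3479 without serplulimab replicate 1, 809 without combination replicate 2, 24 and 8 without combination replicates 1 and 3, and 11 and 1 without serplulimab replicates 2 and 3. Of 40 genes named here that passed, 31 and 34 no longer did without combination replicates 1 and 3, and 34 and 39 without serplulimab replicates 2 and 3, while all 40 kept their direction.

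The firmest rise was that of Reg1, which encodes a secreted lectin-like protein of pancreas and injured gut epithelium. Reg1 had 5.06, 7.52 and 3.58 FPKM in combination tumours, against 0.225, 0.00169 and 0.211 FPKM in serplulimab tumours. Every combination tumour stood far above every serplulimab tumour, and the fold change was 3.15 ± 0.26 with an adjusted p of 8.62e-05. Reg3g, which encodes a related antibacterial lectin of the gut lining, had 8.33, 6.22 and 12.3 FPKM in combination tumours. In serplulimab tumours it had 1.08 and 0.413 FPKM in replicates 1 and 2 and under 0.1 FPKM in replicate 3 (3.35 ± 0.44, adjusted p = 0.00674). The 2 are neighbours on chromosome 6 (GRCm38, GENCODE M21 annotation): Reg1 spans 78422711 to 78428667 on the plus strand and Reg3g spans 78466269 to 78468872 on the minus strand. Of 7 Reg family genes in the table, a family counted after its values were seen, these 2 passed the filter on low values.

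The start regions of this neighbouring pair are shown because both rose. Each runs 5′ to 3′ on the gene's strand from 250 bases before the RefSeq start to 50 after it (RefSeq, GRCm38.p6), at chr6:78425733-78426032 (+) for Reg1 and chr6:78468825-78469124 (−) for Reg3g. Capitals mark TATAAA, the TATA box letters, on either strand. Counted from 1 at the 5′ end, they begin at bases 221 and 286 for Reg1 and at bases 90 and 224 for Reg3g. In both genes 1 match begins close to where a TATA box sits, 30 bases before the start in Reg1 and 27 in Reg3g.
Reg1: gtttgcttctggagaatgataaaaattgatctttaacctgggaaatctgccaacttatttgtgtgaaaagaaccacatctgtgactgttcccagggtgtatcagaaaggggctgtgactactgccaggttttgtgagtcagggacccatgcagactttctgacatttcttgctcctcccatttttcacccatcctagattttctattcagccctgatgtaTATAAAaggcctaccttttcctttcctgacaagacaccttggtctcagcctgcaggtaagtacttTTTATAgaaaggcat
Reg3g: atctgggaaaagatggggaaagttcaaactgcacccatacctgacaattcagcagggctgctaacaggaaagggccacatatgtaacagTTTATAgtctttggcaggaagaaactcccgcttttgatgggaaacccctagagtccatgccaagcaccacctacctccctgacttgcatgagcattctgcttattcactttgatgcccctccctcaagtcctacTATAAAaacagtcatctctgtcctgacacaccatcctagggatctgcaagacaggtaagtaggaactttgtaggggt
These letters occur in 13.6% of 32851 such windows. A match is a description of the letters, not of factor binding.

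Most general epithelial genes were higher in the same tumours. Of the 10 tested genes of the colon and general epithelium list, 5 passed as higher and none as lower, beside 1.41% and 0.186% of all genes. Fold changes were positive for 9 of them, with a list median of 2.53 and a lowest value of −1.97. Without combination replicate 3, serplulimab replicate 2 or serplulimab replicate 3 none of the 10 passed, and without combination replicate 1, 1 did. With low-dose replicate 2 left out 9 passed as higher and 1 as lower, beside 22.1% and 16.2% of all genes. With serplulimab replicate 1 left out 9 passed as higher, beside 18.2% of all genes. Epcam, the epithelial adhesion molecule, had 8.17, 8.13 and 10.2 FPKM in combination tumours, against 1.32, 0.543 and 0.197 FPKM in serplulimab tumours (3.08 ± 0.61, adjusted p = 0.0272). Cldn3, a tight junction claudin, had 4.65, 5.31 and 5.83 FPKM in combination tumours, against 0.71, 0.114 and 0.0228 FPKM in serplulimab tumours (2.98 ± 0.59, adjusted p = 0.0272). Cdh1, which encodes E-cadherin, had 3.55, 2.64 and 4.55 FPKM in combination tumours, against 1.22, 0.4 and 0.294 FPKM in serplulimab tumours (1.90 ± 0.40, adjusted p = 0.0351). For all 3 genes the combination tumours lay close together and above the serplulimab tumours, among which replicate 1 was the highest. Cldn7, a further claudin, rose by 2.15 ± 0.42 (adjusted p = 0.0267), and the simple-epithelium keratin Krt18 rose by 1.22 ± 0.23 (adjusted p = 0.0255). Krt18 was also well expressed without HLX53, at 25, 37.8 and 40.8 FPKM in combination tumours and 14.4, 11.6 and 17.4 FPKM in serplulimab tumours. The intestinal markers Cdx1 and Vil1 were below 0.1 FPKM in all 6 tumours. Keratin and claudin families, counted after their values were seen, were mixed. Of 11 tested keratin genes 5 passed as higher, 8 were positive and 2 lay below all serplulimab tumours. Of 10 tested claudin genes 3 passed as higher, 7 were positive and 3 lay below all serplulimab tumours. Over all genes tested 18.8% lay below all serplulimab tumours.

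Further epithelial genes were among the larger rises. Fxyd3, a regulator of the sodium pump, had 9.86, 15.6 and 16.7 FPKM in combination tumours, against 1.81, 0.824 and 0.135 FPKM in serplulimab tumours (3.51 ± 0.77, adjusted p = 0.0383). Wfdc2, a secreted protease inhibitor of ducts and airways, had 10.7, 8.83 and 9.18 FPKM in combination tumours, against 1.30, 0.443 and 0.0184 FPKM in serplulimab tumours (3.39 ± 0.76, adjusted p = 0.0428). Tmprss2, a membrane serine protease, had 6.76, 5.13 and 6.90 FPKM in combination tumours, against 1.26, 0.189 and 0.0204 FPKM in serplulimab tumours (2.97 ± 0.64, adjusted p = 0.0369). In none of these did the groups overlap, and replicate 1 was the highest serplulimab tumour for each. Transcription and splicing factors of epithelium rose as well, singled out after their values were seen: Esrp1, an epithelial splicing regulator, by 1.35 ± 0.30 and Elf3 by 1.44 ± 0.25, with adjusted p-values of 0.0393 and 0.0195.

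Several genes of basal keratinocytes rose. Of 12 skin keratinocyte genes 6 passed the filter on low values, and of these 6, 4 rose and none fell, with a median of 2.03. The lowest fold change among the 6 was −0.25, and 1 of them lay below all serplulimab tumours. Without combination replicate 1, combination replicate 3 or serplulimab replicate 2, 3 of the 6 still passed, and without serplulimab replicate 3 none did. With low-dose replicate 2 left out 5 did, beside 22.1% of all genes higher. Krt5 had 4.28, 4.24 and 4.42 FPKM in combination tumours, against 0.544 and 0.104 FPKM in serplulimab replicates 1 and 2 and under 0.1 FPKM in replicate 3 (2.82 ± 0.44, adjusted p = 0.00943). Its partner Krt14 had 3.08, 3.31 and 3 FPKM in combination tumours, against 0.296, 0.0812 and 0.0727 FPKM in serplulimab tumours (2.5 ± 0.33, adjusted p = 0.00674). The 3 combination tumours were nearly equal for both keratins of the basal layer. Krt17 rose by 1.88 ± 0.26 and Krt15 by 1.14 ± 0.15, each with an adjusted p of 0.00674. Krt15 had 0.543, 0.686 and 0.572 FPKM in combination tumours and was under 0.1 FPKM in every serplulimab tumour. Col17a1, the hemidesmosome collagen of basal cells and named after its values were seen, rose by 0.99 ± 0.19 (adjusted p = 0.0255). Of cornified envelope genes, Sprr2a3 had 0.579, 1.47 and 0.784 FPKM in combination tumours and at most 0.102 FPKM in serplulimab tumours (1.36 ± 0.19, adjusted p = 0.00706). Close copies of this gene exist, so its value is uncertain. Sprr1a had 3.68, 0.408 and 5.03 FPKM in combination tumours and at most 0.265 FPKM in serplulimab tumours (2.18 ± 0.53, adjusted p = 0.0554, and 0.00781 without low-dose replicate 2). Both genes separated the groups. Krt1, Lor and Flg of differentiated epidermis, the desmosomal Dsg3 and Krt16 were below 0.1 FPKM in all 6 tumours.

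Of 9 tested mammary gland genes 2 rose, with a median of 1.24. Of the 9, 6 passed without low-dose replicate 2 or serplulimab replicate 1, 3 without combination replicate 2, and without any other single tumour of the compared groups none did. Of all genes 22.1% passed as higher without low-dose replicate 2, 18.2% without serplulimab replicate 1 and 3.54% without combination replicate 2. Prlr, the prolactin receptor, had 6.12, 5.26 and 6.31 FPKM in combination tumours, against 1.16, 0.213 and 0.0901 FPKM in serplulimab tumours (2.85 ± 0.56, adjusted p = 0.0272). Elf5, a transcription factor of luminal alveolar cells, had 0.962, 0.707 and 1.31 FPKM in combination tumours, against 0.166, 0.15 and 0.0622 FPKM in serplulimab tumours (1.24 ± 0.22, adjusted p = 0.0224). Both genes separated the groups completely. The milk protein genes Csn2, Csn1s2a and Wap were below 0.1 FPKM in all 6 tumours.

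Fat genes were higher in every combination tumour, although 1 of 12 tested adipocyte genes passed with all tumours in the fit. All 12 passed as higher without low-dose replicate 2, 11 without serplulimab replicate 1 and 2 without combination replicate 2. In those fits 22.1%, 18.2% and 3.54% of all genes passed as higher. None of the 12 passed without any one of combination replicates 1 and 3 and serplulimab replicates 2 and 3. Pnpla2, the lipase that starts triglyceride breakdown, had 85.4, 74.5 and 87.2 FPKM in combination tumours, against 39.5, 37.4 and 28.7 FPKM in serplulimab tumours (1.23 ± 0.26, adjusted p = 0.0369). All 12 genes stood above all serplulimab tumours, a pattern that 19.6% of all genes tested showed, and the list median was 2.82. Plin1, a lipid droplet coat protein, had 22.3, 18.9 and 22.7 FPKM in combination tumours, against 2.90, 1.32 and 0.587 FPKM in serplulimab tumours (3.52 ± 0.97, adjusted p = 0.0649). Fabp4, a fatty acid carrier, had 750, 959 and 892 FPKM in combination tumours, against 219, 112 and 60.1 FPKM in serplulimab tumours (2.92 ± 0.84, adjusted p = 0.0669). Combination tumours were thus similar to one another for fat genes, while serplulimab tumours spread widely. With low-dose replicate 2 left out the adjusted p was 0.00239 for Plin1 and 0.00338 for Fabp4.

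Outside the list, Adrb3, the beta-3 adrenergic receptor of fat cells, had 5.65, 5.85 and 7.58 FPKM in combination tumours, against 0.484, 0.282 and 0.147 FPKM in serplulimab tumours (3.10 ± 0.63, adjusted p = 0.031). Further genes of fat, named after their values were seen, rose too: Slc2a4, the insulin-regulated glucose transporter, by 2.28 ± 0.49, Lgals12 by 2.29 ± 0.40, the lactate receptor Hcar1 by 2.17 ± 0.43, the glycerol channel Aqp7 by 2.01 ± 0.42 and the lipase relative Pnpla3 by 1.71 ± 0.40. Their adjusted p-values lay between 0.0195 and 0.0491.

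Beside these rises the list levels, the mean of log2(FPKM + 0.5) over tested members, moved together. Adipocyte genes had levels of 6.04, 5.74 and 6.05 in combination tumours and 3.91, 3 and 2.33 in serplulimab tumours. Skin keratinocyte genes had levels of 1.26, 1.02 and 1.34 in combination tumours and −0.27, −0.55 and −0.69 in serplulimab tumours. Mammary gland genes had levels of 1.90, 1.64 and 2.12 in combination tumours and 0.84, 0.49 and 0.32 in serplulimab tumours. The share of host skin, mammary and fat tissue in the dissected pieces was not tested, and in whole tumours more cells of a type and more RNA per cell cannot be told apart.

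**Figure D2:**
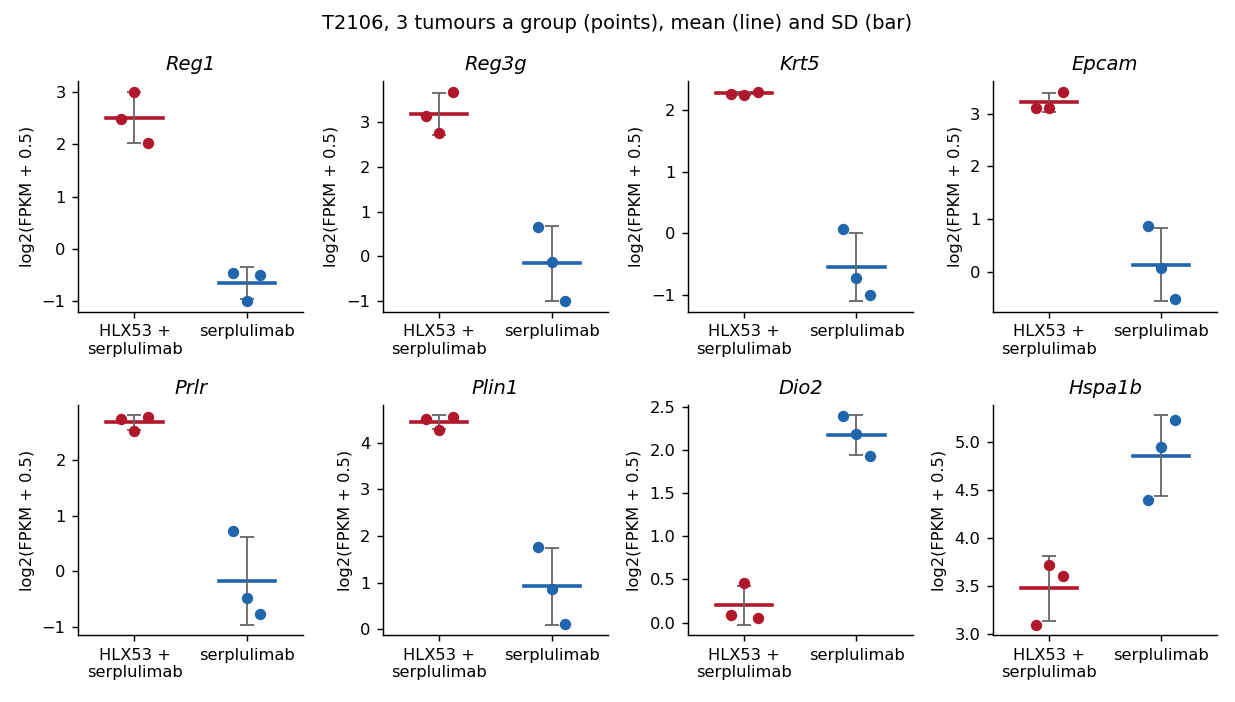
Log2(FPKM + 0.5) of 6 genes that were higher and 2 that were lower in combination tumours, with HLX53 10 mg/kg + serplulimab left and serplulimab right in each panel (points: T2106 tumours, line: mean, bar: SD, n = 3 each). No panel shows overlap between groups, and all genes but Plin1 (adjusted p = 0.0649) passed the threshold.

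Falls were fewer and smaller, with a median of −0.89 over the 28 genes, beside 1.52 over the 212 rises. Dio2, which encodes the deiodinase that makes active thyroid hormone inside cells, had 0.559, 0.875 and 0.538 FPKM in combination tumours, against 4.76, 4.07 and 3.31 FPKM in serplulimab tumours (−1.97 ± 0.41, adjusted p = 0.0325). Hspa1b, an inducible HSP70 heat shock gene, had 8.07, 12.7 and 11.7 FPKM in combination tumours, against 20.7, 30.5 and 37.1 FPKM in serplulimab tumours (−1.38 ± 0.32, adjusted p = 0.0487). No combination tumour reached the lowest serplulimab tumour for either gene. Hspa1b has a nearly identical copy, Hspa1a, so reads may be split between them, and its own value is uncertain. Hspa1a had 3.93, 3.33 and 5.80 FPKM in combination tumours, against 7.00, 7.33 and 11.4 FPKM in serplulimab tumours (−0.90 ± 0.52, adjusted p = 0.21). Jun, a subunit of the AP-1 transcription factor, had 33.2, 44.2 and 36.0 FPKM in combination tumours, against 48.8, 59.4 and 59.3 FPKM in serplulimab tumours (−0.56 ± 0.13, adjusted p = 0.0444). Hspa1b and Jun were the 2 of 19 tested immediate early and stress genes that passed, both lower, while the list median was −0.15. Of the 19, 5 passed as lower and 2 as higher without low-dose replicate 2, beside 16.2% and 22.1% of all genes. Without serplulimab replicate 1, 4 and 2 did, beside 4.84% and 18.2% of all genes. Without any one of combination replicates 1 and 3 and serplulimab replicates 2 and 3 none of the 19 did.

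Start regions are shown for the 2 inducible genes Dio2 and Hspa1b, from 250 bases before the RefSeq start to 50 after it, at chr12:90738989-90739288 (−) and chr17:34959189-34959488 (−) of GRCm38.p6. In Dio2 capitals mark TGACGTCA, the cAMP response element letters, at base 156, and TATAAA at base 221. In Hspa1b capitals mark GAANNTTC, the core letters bound by heat shock factor, at base 147. The same letters, left unmarked, begin at base 18 of the region shown above for Reg3g, a gene that rose.
Dio2: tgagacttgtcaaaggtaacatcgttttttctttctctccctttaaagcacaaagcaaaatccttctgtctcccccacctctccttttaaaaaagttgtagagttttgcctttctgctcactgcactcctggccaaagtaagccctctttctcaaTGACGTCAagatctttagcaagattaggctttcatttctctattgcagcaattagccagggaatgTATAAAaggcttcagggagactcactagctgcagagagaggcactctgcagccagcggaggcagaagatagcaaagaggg
Hspa1b: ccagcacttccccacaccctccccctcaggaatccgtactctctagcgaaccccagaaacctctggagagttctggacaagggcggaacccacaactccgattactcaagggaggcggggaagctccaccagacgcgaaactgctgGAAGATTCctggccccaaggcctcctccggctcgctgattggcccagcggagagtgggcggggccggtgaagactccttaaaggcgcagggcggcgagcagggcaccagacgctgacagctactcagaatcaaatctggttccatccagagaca
TGACGTCA occurs in 1.79% and GAANNTTC in 7.86% of all such windows on either strand, and the marked motifs do not overlap.

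The other large falls were of mixed function. Sgcd, a sarcoglycan of the muscle membrane complex, had 2.99, 5.76 and 2.99 FPKM in combination tumours, against 8.66, 12.1 and 11.4 FPKM in serplulimab tumours (−1.39 ± 0.32, adjusted p = 0.0444). Sun1, which ties the nucleus to the cytoskeleton, had 17.5, 27 and 21.5 FPKM in combination tumours, against 38.2, 44.4 and 51.1 FPKM in serplulimab tumours (−1.01 ± 0.23, adjusted p = 0.0444). Jmjd6, a nuclear hydroxylase, had 24.1, 29.0 and 27.6 FPKM in combination tumours, against 46.2, 60.6 and 57.7 FPKM in serplulimab tumours (−1.01 ± 0.24, adjusted p = 0.0491). The groups were apart for all 3, and combination replicate 2 was the combination tumour nearest to the serplulimab tumours. Rundc3b, Camk2b, Lancl3, Tbl2 and Crocc2 fell by between 0.93 and 1.16 on the log2 scale.

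Most T cell, B cell and myeloid genes had higher values in combination tumours, and how many passed depended on single tumours. With all tumours in the fit no member of the immune cell lists passed, and of 62 tested immunoglobulin genes and segments, a family counted after its values were seen, 2 passed as higher. Without low-dose replicate 2, 13 of 21 T cell identity genes, 10 of 14 B and plasma cell genes, 13 of 20 macrophage and monocyte genes and 13 of 20 neutrophil genes passed as higher and none as lower, beside 22.1% of all genes higher and 16.2% lower. Without serplulimab replicate 1 those counts were 4, 8, 10 and 10, beside 18.2% of all genes higher and 4.84% lower. Without combination replicate 2 they were 0, 4, 0 and 0, beside 3.54% of all genes higher. With only the compared groups in the fit they were 0, 0, 1 and 0, beside 1.73% higher. Leaving out any one of combination replicates 1 and 3 and serplulimab replicates 2 and 3 gave 0 in each of these lists. All 21 T cell identity genes had positive fold changes, with a median of 1.32, and 6 of them lay above all serplulimab tumours, beside 19.6% of all genes tested. Cd3e, part of the T cell receptor complex, had 10.8, 4.60 and 9.5 FPKM in combination tumours, against 4.93, 1.51 and 2.02 FPKM in serplulimab tumours (1.46 ± 0.71, adjusted p = 0.15). Cd4 had 12.3, 4.96 and 6.83 FPKM in combination tumours, against 3.92, 0.794 and 0.745 FPKM in serplulimab tumours (2.06 ± 0.72, adjusted p = 0.0844). Cd8a had 15.1, 7.02 and 13.0 FPKM in combination tumours, against 5.86, 2.46 and 3.30 FPKM in serplulimab tumours (1.49 ± 0.77, adjusted p = 0.167). For Cd4 and Cd8a every combination tumour exceeded every serplulimab tumour, while combination replicate 2 lay just below serplulimab replicate 1 for Cd3e. Without low-dose replicate 2 the adjusted p was 0.0411 for Cd3e, 0.00973 for Cd4 and 0.0476 for Cd8a. Foxp3, the regulatory T cell factor, differed by 0.78 ± 0.39 (adjusted p = 0.156).

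Killing genes had smaller fold changes. Gzmb, which encodes granzyme B, had 174, 79.8 and 116 FPKM in combination tumours, against 91.1, 109 and 112 FPKM in serplulimab tumours (0.18 ± 0.38, adjusted p = 0.731), and without combination replicate 1 the fold change was −0.10. Prf1, the pore protein perforin, had 71.6, 27.5 and 46.9 FPKM in combination tumours, against 25.6, 35.7 and 37.8 FPKM in serplulimab tumours (0.47 ± 0.49, adjusted p = 0.474). Ifng had 9.13, 3.07 and 7.53 FPKM in combination tumours, against 3.66, 3.96 and 2.16 FPKM in serplulimab tumours (0.83 ± 0.36, adjusted p = 0.122). In all 3 genes combination replicate 2 fell within or below the serplulimab values. The CD8 and cytotoxic list had a median of 0.75 with 18 of 20 genes positive. Without low-dose replicate 2, 3 of 20 (15.0%) passed as higher, a smaller share than the 22.1% of all genes. Interferon gamma response genes had a median of 0.14 (17 of 24 positive) and type I interferon genes −0.19 (4 of 20 positive).

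All 14 tested B and plasma cell genes were positive with a median of 1.80. Igkc, the kappa light chain constant region, had 1540.3, 54.8 and 198 FPKM in combination tumours, against 50.8, 4.24 and 9.35 FPKM in serplulimab tumours (4.26 ± 1.45, adjusted p = 0.0817). The lowest combination tumour was just above the highest serplulimab tumour. All 20 macrophage and monocyte genes were positive with a median of 1.26, and 12 of them lay above all serplulimab tumours, beside the same 19.6%. Apoe, a lipid carrier abundant in macrophages, had 4102, 3126 and 2478 FPKM in combination tumours, against 976, 336 and 225 FPKM in serplulimab tumours (2.92 ± 0.91, adjusted p = 0.072). S100a8, a neutrophil alarmin, had 373, 111 and 273 FPKM in combination tumours, against 164, 42.5 and 23.2 FPKM in serplulimab tumours (2.02 ± 0.82, adjusted p = 0.106). The adjusted p without low-dose replicate 2 was 0.0233 for Igkc, 0.0062 for Apoe and 0.021 for S100a8. MHC class II genes had a median of 1.21 over 10 genes and natural killer genes 0.23 over 8. Cd209f, a C-type lectin of the SIGN family outside these lists, had 9.69, 13.6 and 15.4 FPKM in combination tumours, against 2.89, 0.656 and 0.19 FPKM in serplulimab tumours, and rose with all tumours in the fit (3.24 ± 0.71, adjusted p = 0.0383).

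Stromal genes had positive fold changes and proliferation and hypoxia genes negative ones. None of them passed with all tumours in the fit, whereas without low-dose replicate 2, 19 of 22 fibroblast and 13 of 15 endothelial genes passed as higher and 14 of 23 cell cycle and 10 of 18 hypoxia genes as lower. Without that tumour 22.1% of all genes passed as higher and 16.2% as lower. Without serplulimab replicate 1 the list counts were 18, 14, 0 and 4, beside 18.2% of all genes higher and 4.84% lower. With only the compared groups in the fit they were 0, 1, 0 and 7, beside 1.73% higher and 0.445% lower. Leaving out any other single tumour of the compared groups gave 0 in each of these lists. The median over the 22 fibroblast and matrix genes was 2.31, and 21 of them were positive. Col1a1 had 1009, 461 and 929 FPKM in combination tumours, against 711, 52.0 and 50.8 FPKM in serplulimab tumours (2.61 ± 1.09, adjusted p = 0.112). Serplulimab replicate 1 thus lay among the combination tumours, and the other serplulimab tumours far below. All 15 tested endothelial genes were positive with a median of 1.49, led by Vwf, the clotting factor of vessel lining, with 9.56, 5.99 and 7.17 FPKM in combination tumours and 2.26, 0.278 and 0.567 FPKM in serplulimab tumours (2.59 ± 0.66, adjusted p = 0.0611). All 23 cell cycle genes were negative with a median of −0.55, and Mki67 had 18.5, 28.7 and 21.0 FPKM in combination tumours and 31.7, 28.8 and 36.4 FPKM in serplulimab tumours (−0.52 ± 0.22, adjusted p = 0.119). Of 18 hypoxia and glycolysis genes 14 lay below all serplulimab tumours, which 18.8% of all genes did, with a median of −0.93. Pgk1, a glycolytic kinase, had 491, 698 and 540 FPKM in combination tumours, against 1026, 1519 and 1376 FPKM in serplulimab tumours (−1.18 ± 0.36, adjusted p = 0.0703). Leaving out low-dose replicate 2 gave an adjusted p of 0.0298 for Col1a1, 0.00387 for Vwf, 0.033 for Mki67 and 0.0169 for Pgk1.

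The Wnt list split by member. Dkk2, a secreted Wnt antagonist, had 1.34, 4.68 and 0.908 FPKM in combination tumours, against 7.82, 15.1 and 12.6 FPKM in serplulimab tumours (−2.33 ± 0.60, adjusted p = 0.0611). Sfrp1, another secreted Wnt inhibitor, had 23.1, 8.42 and 18.2 FPKM in combination tumours, against 10.1, 0.717 and 0.53 FPKM in serplulimab tumours (2.74 ± 0.94, adjusted p = 0.0832). Dkk2 was lower in every combination tumour, whereas Sfrp1 overlapped at serplulimab replicate 1. None of the 8 tested members passed, and their median was 2.06. Without low-dose replicate 2, 7 of the 8 passed as higher and Dkk2 as lower, beside 22.1% and 16.2% of all genes. Adjusted p-values in that fit were 0.00555 for Dkk2 and 0.0164 for Sfrp1. Without serplulimab replicate 1, 5 passed as higher and 1 as lower, and without combination replicate 2, 0 and 1 did. None of the 8 passed with only the compared groups in the fit or without any other single tumour of those groups.

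**Figure D3:**
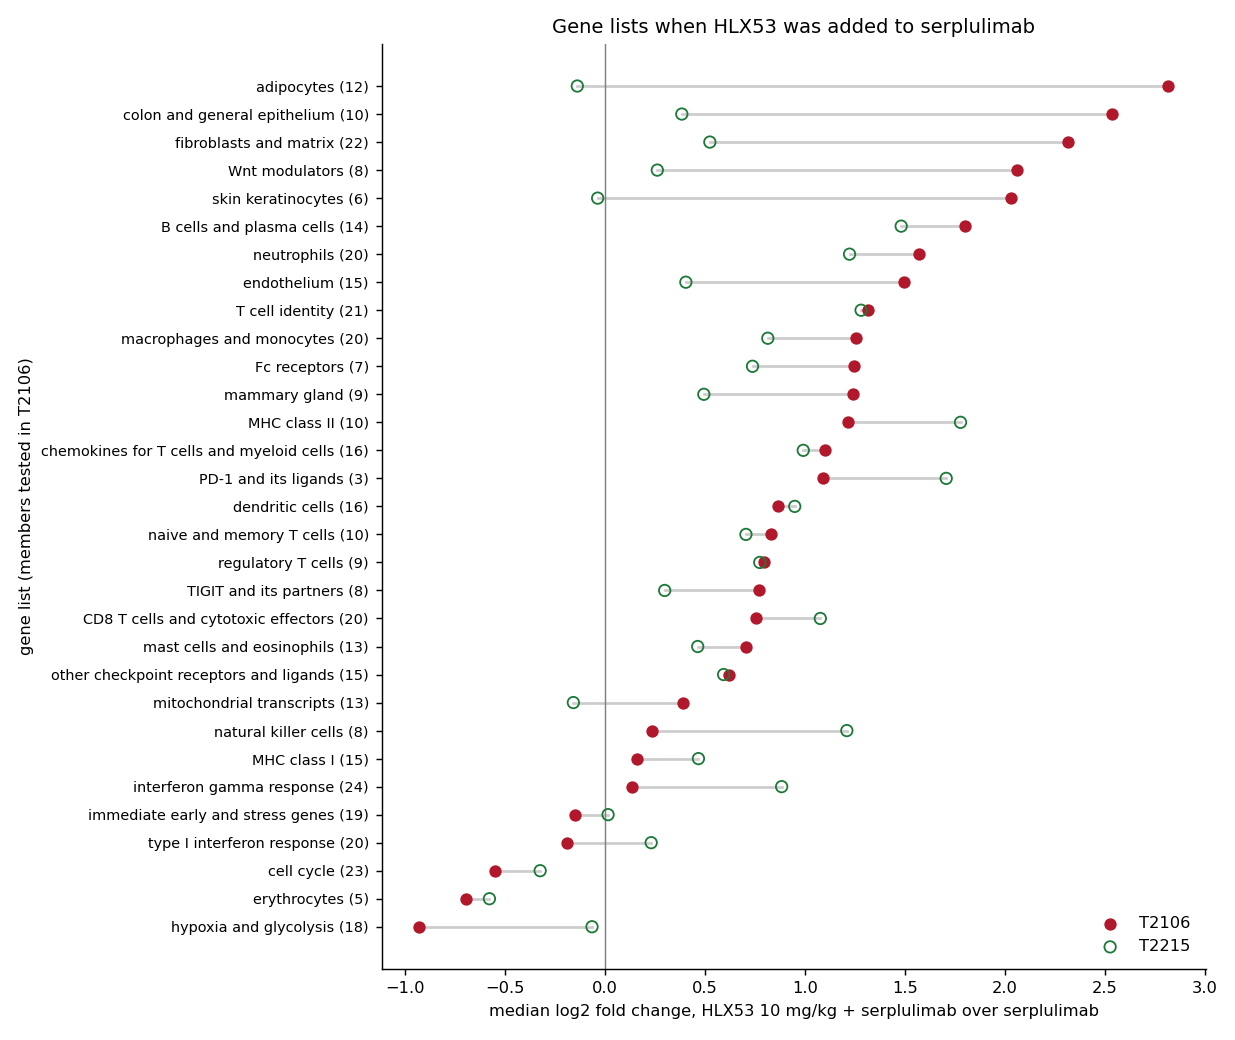
Median log2 fold change of HLX53 10 mg/kg + serplulimab over serplulimab for each gene list (rows, with the number of members tested in T2106), in T2106 (filled) and T2215 (open). Adipocyte genes had medians of 2.82 in T2106 and −0.14 in T2215, and T cell identity genes had 1.32 and 1.28.

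At 5 mg/kg, HLX53 with serplulimab passed for 0 genes (0.0% of those tested), with 1312 genes (8.71%) at an unadjusted p under 0.05. The 3 low-dose tumours disagreed among themselves. Adipocyte list levels there were 3.76, 6.03 and 1.30, so replicate 2 matched the 10 mg/kg tumours and replicate 3 fell below all serplulimab tumours. Of the 212 genes that rose at 10 mg/kg, low-dose replicate 2 exceeded all serplulimab tumours for 205 (96.7%, beside 40.1% of all genes tested), replicate 1 for 35 (16.5%, beside 16.4%) and replicate 3 for 18 (8.49%, beside 26.4%). Low-dose replicate 3 lay below all serplulimab tumours for 95 of the 212 (44.8%, beside 40.1%). Krt5 had under 0.1, 1.85 and under 0.1 FPKM in the low-dose tumours, and Cd3e 5.74, 21.3 and 1.07 FPKM. T cell, neutrophil and fibroblast genes were likewise highest in low-dose replicate 2, at list levels of 4.14, 5.48 and 7.40.

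**Figure D4:**
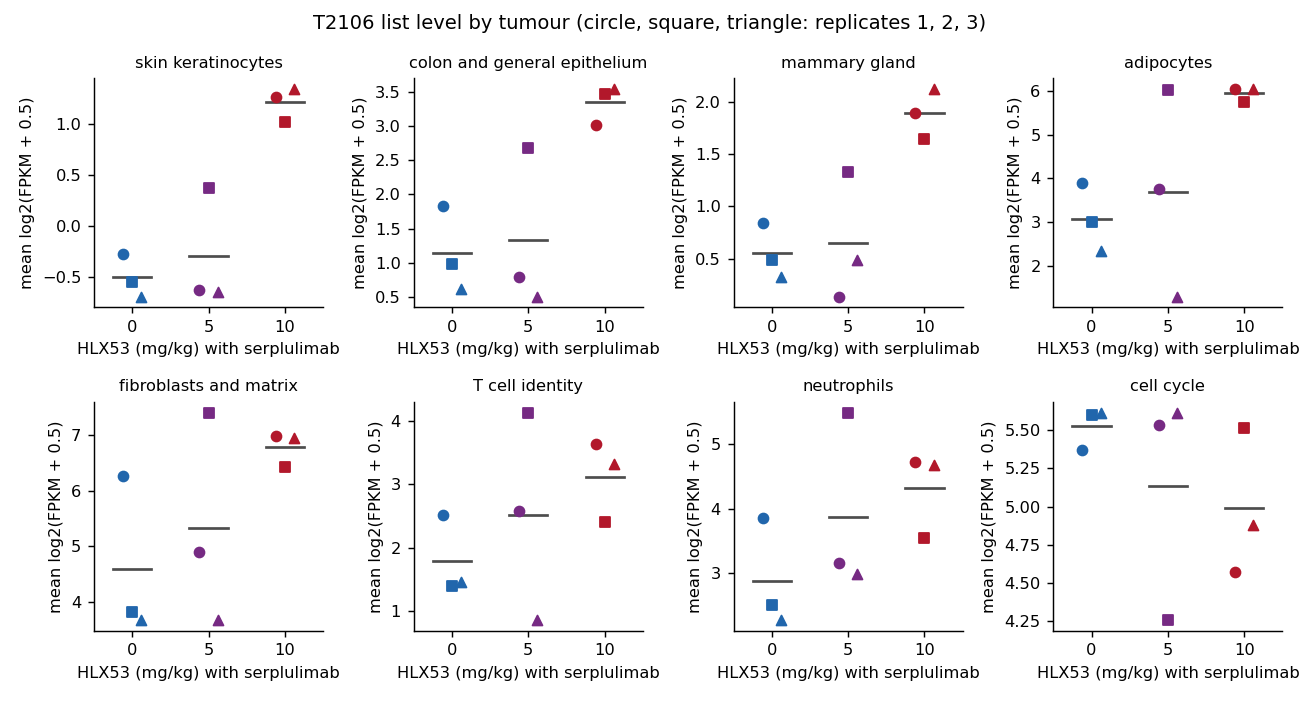
List levels, the mean of log2(FPKM + 0.5) over tested members, of each T2106 tumour given serplulimab with HLX53 at 0, 5 or 10 mg/kg (symbols: replicates, line: mean, n = 3 each). Adipocyte levels are close together at 10 mg/kg (5.74 to 6.05) and spread from 1.30 to 6.03 at 5 mg/kg.

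Set directly against each other, 10 mg/kg and 5 mg/kg of HLX53 with serplulimab differed for 21 genes (0.139%). Of these 20 were higher at 10 mg/kg, and all 20 were among the 212 rises over serplulimab, with which this contrast shares the 10 mg/kg tumours. Reg1 was at 0.00142, 0.397 and 0.00202 FPKM at 5 mg/kg, so all 10 mg/kg tumours were above it (3.22 ± 0.26, adjusted p = 6.57e-05). Nnat, an imprinted membrane protein gene active in fat and brain, had 10.4, 15.2 and 10.6 FPKM at 10 mg/kg and 1.10, 3.11 and 0.72 FPKM at 5 mg/kg (2.69 ± 0.39, adjusted p = 0.0181). Cebpb, a transcription factor of inflammation and fat, was the single gene lower at 10 mg/kg. It had 48.4, 52.3 and 49.5 FPKM in serplulimab tumours, 79.7, 84.4 and 94.0 FPKM at 5 mg/kg and 48.8, 41.6 and 61.6 FPKM at 10 mg/kg (−0.77 ± 0.13 for 10 over 5 mg/kg, adjusted p = 0.0425). Without low-dose replicate 2, 5867 genes passed for the dose difference, and without low-dose replicate 1 or 3, 1 did.

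The effect of HLX53 with serplulimab was also set against its effect without serplulimab, HLX53 over vehicle. The 2 effects differed for 1 gene, Reg1 (0.00664%), by 3.25 ± 0.37 (adjusted p = 0.00496), and for 2388 genes (15.8%) at an unadjusted p under 0.05. Reg1 was below 0.1 FPKM in all 3 tumours given HLX53 alone, and had under 0.1, 0.113 and under 0.1 FPKM in vehicle tumours. It met the filter on low values only through the combination tumours, and at a pseudocount of 0.1 no gene passed for this difference. Adipocyte list levels were 1.16, 1.12 and 1.57 in tumours given HLX53 alone and 1.18, 3.44 and 1.66 in vehicle tumours, all below the combination tumours.

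In T2215 the same pair of treatments gave 0 genes past the threshold of 14914 tested (0.0%), with 2002 (13.4%) at an unadjusted p under 0.05. Of the 212 rises of T2106, 198 could be tested there, and 123 were positive with a median of 0.12. Beside them, 8176 of all 14646 genes tested in both experiments were positive, with a median of 0.05. Of the 28 falls, 4 were positive and 24 negative, with a median of −0.09. Reg1 had 1.29, 6.48 and 0.0458 FPKM in T2215 combination tumours, against 0.604, 0.00137 and 0.283 FPKM in T2215 serplulimab tumours (1.32 ± 0.62, adjusted p = 0.366). Epcam had 2.74, 11 and 0.179 FPKM in T2215 combination tumours, against 9.42, 0.888 and 0.12 FPKM in T2215 serplulimab tumours (0.52 ± 1.01, adjusted p = 0.813). The T2215 tumours thus spread widely within both groups, with combination replicate 2 and serplulimab replicate 1 high. Adipocyte list levels were also highest in those tumours of each group. They were 4.29, 6.80 and 2.14 in T2215 combination tumours and 6.56, 1.38 and 5.03 in T2215 serplulimab tumours. Serplulimab replicate 3, the lowest of its group for Epcam, was not the lowest for adipocyte genes. T2215 serplulimab replicate 1 also had a skeletal muscle list level of 11.26, against 0.45 and 0.76 in the other serplulimab tumours. What part host tissue had in the 2 experiments was not tested.

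T cell medians were of similar size in T2215, where no gene passed. T cell identity genes had a median of 1.28 in T2215 with 21 of 21 positive, and Cd3e had 4.65, 6.65 and 2.17 FPKM in T2215 combination tumours, against 0.212, 0.551 and 8.24 FPKM in T2215 serplulimab tumours (1.30 ± 0.75, adjusted p = 0.423). The highest of these 6 Cd3e values was that of a serplulimab tumour. MHC class II genes had a median of 1.78, CD8 and cytotoxic genes 1.08 and interferon gamma response genes 0.88 in T2215. Fibroblast genes had a median of 0.52 there and adipocyte genes −0.14.

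**Figure D5:**
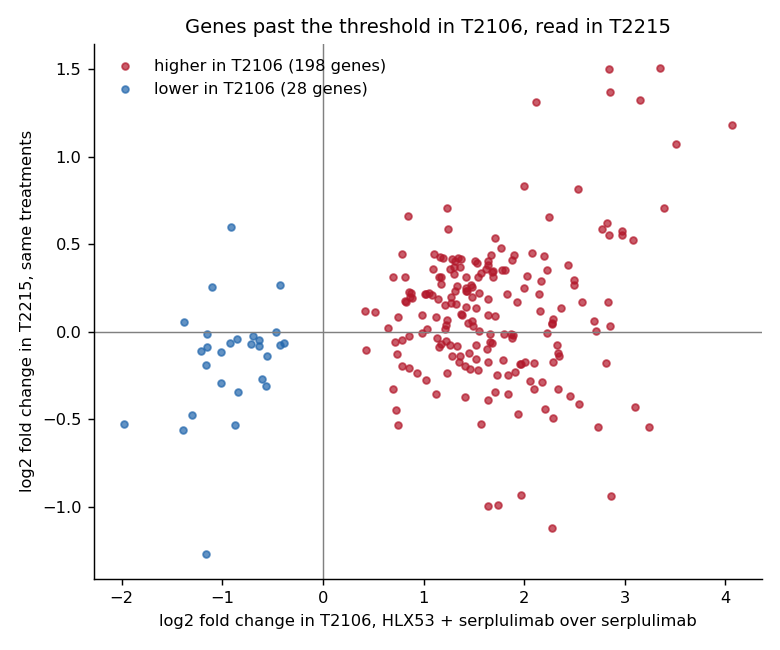
Log2 fold change of HLX53 10 mg/kg + serplulimab over serplulimab in T2215 (vertical) against T2106 (horizontal) for genes past the threshold in T2106 and tested in T2215. The 198 genes higher in T2106 have a median of 0.12 in T2215, and the 28 lower ones a median of −0.09.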

How the data were processed

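Per the labels' protocols, tumour RNA was purified (Qiagen RNeasy) and libraries were made with the MGIEasy set. Per the submitters' processing notes, FastQC, Trimmomatic, STAR and Bowtie were used with the builds hg19, mm10 and GRCh37, whose roles and versions are not given. The deposited tables hold log2 FPKM made by the authors, for 47729 genes and separately normalised per experiment, so T2106 and T2215 were fitted apart. Read depth is unknown, and no counting interval is given.

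Values were raised to FPKM. Genes with at least 0.5 FPKM in at least 3 libraries of a table were tested on log2(FPKM + 0.5) with limma 3.58.1 in R 4.3.3 (group means, empirical Bayes with trend, two-sided), with Benjamini-Hochberg adjustment and a threshold of 0.05. Fold changes on this scale understate those of scarce genes. The script was tested on simulated data.

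The 32 gene lists were described by counts and medians, not tested; 2 of their 480 members, Pvrig and H2-Ea, did not match. Members and lists were chosen with earlier results of these data known. Genes were named by size (10 largest rises and falls), by smallest p in each list, from a panel of 20 genes, and by smallest p in other comparisons; further ones are marked in the text. Unnamed gene models and receptor segments were left out. Some genes that these rules reach are not reported here. Alternatives varied the pseudocount, filter, samples, centring, replicate block and left-out tumours.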

Additional observations from a re-analysis of the deposited data

Results flagged for a closer look

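The estimated effect of HLX53 on Reg1 was larger beside serplulimab than without it. HLX53 with serplulimab over serplulimab gave 3.15, and the effect beside serplulimab minus that without it (HLX53 over vehicle) was 3.25 ± 0.37 on the log2 scale (limma, adjusted p = 0.00496, 15070 genes). Reg1 was above 3 FPKM in all 3 T2106 combination tumours and below 0.4 FPKM in all tumours of the other T2106 groups. It thus met the filter of 0.5 FPKM only through the combination tumours, and the other arms lay near the floor. At a pseudocount of 0.1 no gene passed for this difference (limma, lowest adjusted p = 0.264). In T2215 Reg1 overlapped between combination and serplulimab tumours.

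Fcrls, an Fc receptor-like gene of macrophages, ran in opposite directions in the 2 experiments. It had 26.8, 12.5 and 19.1 FPKM in T2106 combination tumours, against 4.65, 1.56 and 1.87 FPKM in T2106 serplulimab tumours (2.71 ± 1.03, adjusted p = 0.0941, and 0.0344 without low-dose replicate 2). It had 1.87, 4.92 and 3.36 FPKM in T2215 combination tumours, against 8.16, 8.44 and 6.17 FPKM in T2215 serplulimab tumours, a log2 fold change of −1.13 (adjusted p = 0.554). The groups did not overlap in either experiment, and the difference between the experiments was not tested.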

How the results depend on the processing

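The 240 genes past the threshold (212 higher, 28 lower) numbered 5 (4 and 1) at a pseudocount of 0.1, 410 (383 higher) without a filter and 19 (19 and 0) with a 1 FPKM filter. Fitting only the compared groups gave 67 lower and centring on library medians gave 43 lower. The labels do not pair the replicate numbers, whose deviations correlated at 0.495, 0.507 and −0.2, and a replicate block left 114 (107 higher, 7 lower). Leaving out single tumours of the groups gave 1 to 5778 in all, 1 to 3337 higher and 0 to 2441 lower, the upper ends without low-dose replicate 2.

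The 5 mg/kg addition gave 2 genes without a filter. The dose difference (21 genes) gave 1 at pseudocount 0.1, 37 at pseudocount 1, 157 without a filter, 2 with the 1 FPKM filter, 0 with only the compared groups, 9 after centring, 10 with the replicate block and 1 to 5867 without single tumours. The difference in effect (1 gene) gave 0 at pseudocount 0.1, 40 without a filter, 456 with only the compared groups, and 1 to 2 without single tumours. T2215 gave 2 without a filter and 0 to 91 without single tumours. Over 67 named genes and 931 alternative values, 1 changed direction: Gzmb, at −0.10 to 0.46 without single tumours. Of 40 named genes past the threshold, 36 no longer passed at pseudocount 0.1, and 39 without serplulimab replicate 3. The cause was not tested. Read depth is unknown, and values near 0 FPKM carry unknown counting error.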
